A study of Mus musculus with 12 samples.

Results

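Mouse embryonic stem cells (ESC) were compared between flow-sorted fractions of high and low mitochondrial membrane potential. The comparison was made up of the 6 of 12 arrays of the series whose titles name ESC, with 3 arrays of the high and 3 of the low fraction, and it covered all 25206 probe sets. Both fractions came from undifferentiated female C57BL/6 cells grown on gelatin, free of serum and feeders, in 2iLIF medium, which holds ESC in the naive state with 2 inhibitors and the cytokine LIF. Both fractions carried the dye tetramethylrhodamine methyl ester (TMRM), and no group of unstained or unsorted cells was analysed here. TMRM is a fluorescent cation that mitochondria take up along their membrane potential, so the sort was made on dye content and the potential itself was not changed. The other 6 arrays held induced pluripotent stem cells (iPSC), sorted in the same way, with 3 arrays per fraction. The arrays of each group bear the replicate numbers 2, 3 and 4, and array values below are given in that order. The labels do not say whether equal-group arrays came from separate cultures or whether the ESC are 1 line, so the p-values reflect the scatter among these arrays, part or all of which may be technical.

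The potential across the inner mitochondrial membrane is built by the respiratory chain, which pumps protons, and is used by ATP synthase, by protein import and by carriers. Naive ESC divide rapidly with a short G1 phase and hold their pluripotency through factors such as Pou5f1, Nanog, Sox2, Klf4 and Esrrb. Genes needed in mitosis are transcribed mostly in the G2 and M phases of the cell cycle, and genes of DNA replication around the entry into S phase. In RNA from a sorted population, fewer cells of a kind and less RNA per cell cannot be told apart.

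Values are robust multi-array average (RMA) expression on the log2 scale, where a difference of 1 is a doubling. Array medians of the 6 ESC arrays lay between 3.518 and 3.588, and pairs of arrays correlated at 0.9912 to 0.9934 within ESC low, 0.9914 to 0.9931 within ESC high and 0.9881 to 0.9936 between the fractions. No arrays were identical. Of 10 markers of pluripotent cells, 0 differed between the fractions, with group means over the ESC arrays from 3.94 (Dppa5a) to 10.51 (Nanog). Pou5f1 read 5.90, 6.09 and 6.26 in ESC low and 5.95, 5.93 and 6.19 in ESC high, and Nanog read 10.56, 10.54 and 10.50 in ESC low and 10.56, 10.47 and 10.43 in ESC high. Of 14 defining markers of other cells (feeder, blood, endoderm, trophoblast, neural, mesoderm, germ cells), 0 passed in the unpaired fit, and 7 had a mean under the array median. With equal replicate numbers treated as pairs (a block in the fit) 1 of the 14 passed, the germ cell marker Dazl, which fell in that fit. It read 5.70, 5.39 and 5.55 in ESC low and 5.26, 4.88 and 5.00 in ESC high, without overlap, a difference of -0.50 ± 0.15 (adjusted p = 0.26 unpaired and 0.0468 with the block, limma). The blood marker Ptprc and the feeder marker Col1a1 read at most 1.86 and 4.34. The brightest was the germ cell marker Ddx4, at 6.53, 6.08 and 5.77 in ESC low and 6.41, 5.91 and 5.48 in ESC high.

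In the high fraction 77 probe sets were higher (0.305% of those tested) and 13 were lower (0.0516%), or 90 in either direction (0.357%), at a limma adjusted p under 0.05. At an unadjusted p under 0.05 there were 2089. Of the 77, 46 were protein-coding genes, 18 were microRNA genes and 4 had no gene name. MicroRNA genes made up 23.38% of the higher probe sets and 2.099% of all probe sets measured. The rises had a median of 0.99 on the log2 scale and the falls one of -0.69. In all 90 the 3 high arrays lay wholly above or wholly below the 3 low arrays. Over all probe sets the high arrays lay wholly above the low ones in 6.71% and wholly below in 6.36%. Low signal was common among the rises, since 33 of the 77 had an ESC low mean under 3.558, the median of the ESC array medians.

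That equal replicate numbers pair the fractions is an inference from the data (processing section). With the number as a block 146 probe sets were higher (0.579%) and 31 lower (0.123%). Of the unblocked calls, 69 of 77 and 10 of 13 passed with the block too. The numbers of calls rested on single arrays. They were 17 higher and 2 lower when array 2 of ESC low was left out, and 18 and 1 when array 2 of ESC high was. Omitting array 4 of ESC low gave 35 and 5, and omitting array 3 of ESC high gave 39 and 4. The falls numbered 6 when array 4 of ESC high was omitted and 8 when array 3 of iPSC low was. Of the 90 calls, 13 held with each of the 12 arrays left out in turn, named here for that reason: Mir138-2, Mir369, Mir379, Mir329, H3c15, Ntn3, Ephx3, Actl7b, Fam72a, Jpt1, Ube2c, Nusap1 and 1 unnamed probe set.

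Genes that carry out mitosis made up a large share of the rises. Of 135 measured genes in 5 mitosis lists, 15 rose and 0 fell, where 0.305% of all probe sets rose. For 110 of the 135 the difference was above 0, against 48.9764% of all probe sets. The median difference was 0.19 in the lists and -0.00 over all probe sets. In 64 of the 135 genes (47.4%) the high arrays lay wholly above the low arrays, and in 6 (4.44%) wholly below. Averaged over the 135 genes, the low arrays read 7.35 to 7.40 and the high arrays 7.52 to 7.63, without overlap. These levels are above 3.558, the median of the ESC array medians, so the shares over all probe sets are not matched for level. The lists of this and later paragraphs were chosen with earlier results of these data known, so their counts are a description with no test.

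Among 18 mitotic kinases and their regulators, 5 rose (0.305% of all probe sets did), with a list median of 0.27. Aurka, the kinase of spindle poles, read 7.14, 7.23 and 7.52 in ESC low and 7.96, 8.25 and 8.16 in ESC high, a difference of 0.83 ± 0.12 (SE; adjusted p = 0.0142, limma) or 1.78-fold. Aurkb, the kinase of the chromosomal passenger complex, read 7.36, 7.56 and 7.46 in ESC low and 8.18, 8.27 and 8.11 in ESC high, a difference of 0.72 ± 0.10 (SE; adjusted p = 0.00963, limma). Its scaffold Incenp read 7.01, 7.03 and 7.01 in ESC low and 7.60, 7.61 and 7.63 in ESC high, a difference of 0.60 ± 0.09 (SE; adjusted p = 0.0183, limma). In these 3 genes every high array was above every low array, and the arrays of 1 fraction lay closest together in Incenp. Plk1, the polo-like kinase that acts from mitotic entry to cytokinesis, read 8.38, 8.32 and 8.43 in ESC low and 8.88, 9.07 and 9.06 in ESC high, a difference of 0.62 ± 0.10 (SE; adjusted p = 0.0251, limma). Cdk1, the kinase that drives entry into mitosis with cyclin B, read 7.05, 7.33 and 7.36 in ESC low and 7.71, 7.97 and 7.98 in ESC high, a difference of 0.64 ± 0.11 (SE; adjusted p = 0.0378, limma). Array 2 was the lowest of its fraction for Cdk1 in both low and high, and the fractions did not overlap. Of the other kinases, the checkpoint kinase Bub1b was at 0.37 ± 0.10, Ttk at 0.25 ± 0.08 and Wee1, which holds Cdk1 inactive, at 0.28 ± 0.09, none past the threshold. Arpp19, a substrate of the kinase that shields mitotic phosphorylation, was at -0.25 ± 0.09 and also did not pass.

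Of 24 mitotic cyclins, CDC25 phosphatases and genes of the anaphase-promoting complex (APC/C), the ubiquitin ligase that ends mitosis, 1 rose. This was Ube2c, its ubiquitin-conjugating enzyme, which read 8.21, 8.31 and 8.37 in ESC low and 9.01, 9.05 and 9.01 in ESC high, a difference of 0.72 ± 0.08 (SE; adjusted p = 0.00591, limma). Its 3 high arrays lay within 0.05 of each other, all above the low arrays. The APC/C activator Cdc20 was at 0.53 ± 0.11 (adjusted p = 0.0737, limma) and Ccnf at 0.49 ± 0.10 (adjusted p = 0.0791, limma), neither past the threshold. Fzr1, the other activator, was at 0.65 ± 0.14 (adjusted p = 0.091 unpaired and 0.0187 in the blocked limma fit). Cdc25b, which activates Cdk1, was at 0.51 ± 0.12 (adjusted p = 0.106, limma). In each of these 4 genes the 3 high arrays lay above the 3 low arrays. Over the 24 genes this held in 8 (33.3%, against 6.71% of all probe sets). The high arrays lay wholly below in 1 (4.17%, against 6.36%). Over all probe sets 0.305% rose.

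Of 35 spindle and cytokinesis genes, 6 rose (0.305% of all probe sets did), and in 23 (65.7%, against 6.71%) the high arrays lay wholly above the low arrays. The largest difference was that of Fam83d, which brings casein kinase 1 to the spindle. It read 5.09, 5.41 and 5.45 in ESC low and 6.23, 6.51 and 6.29 in ESC high, a difference of 1.03 ± 0.15 (SE; adjusted p = 0.0155, limma) or 2.04-fold. Prc1, which bundles microtubules of the central spindle, read 7.97, 7.97 and 7.68 in ESC low and 8.45, 8.77 and 8.64 in ESC high, a difference of 0.75 ± 0.11 (SE; adjusted p = 0.0124, limma). Nusap1, a spindle microtubule binder, read 6.32, 6.23 and 6.21 in ESC low and 6.81, 7.04 and 6.96 in ESC high, a difference of 0.68 ± 0.09 (SE; adjusted p = 0.00963, limma). The lowest high array of Nusap1 stood well above its low arrays, which differed little. Troap rose by 0.52 ± 0.08, the chromokinesin Kif4 by 0.54 ± 0.10 and Kif11, the motor that pushes spindle poles apart, by 0.47 ± 0.09. With the replicate block Kif4 and Kif11 did not pass (adjusted p = 0.0553 and 0.0606, limma), while the other 13 of the 15 genes did. The kinesins Kif18b (0.52 ± 0.10), Kif2c (0.45 ± 0.10) and Kif18a (0.48 ± 0.10) and the centralspindlin subunit Racgap1 (0.42 ± 0.09) did not pass (adjusted p from 0.0629 to 0.082, limma).

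**Figure D1:**
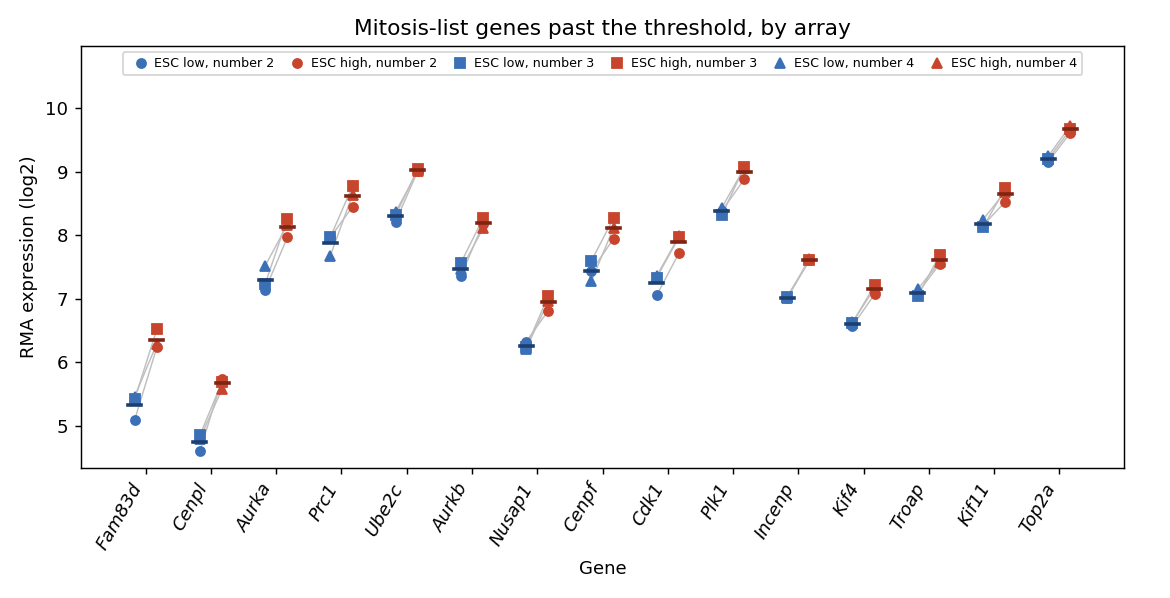
RMA expression (log2, vertical axis) of the 15 mitosis genes past the threshold in the 6 ESC arrays. Blue marks are ESC low and red marks ESC high, the marker shape gives the replicate number, grey lines join equal numbers and short bars are group means (n = 3). In every gene the 3 high arrays sit above the 3 low arrays, with Fam83d showing the widest gap (1.03) and Top2a the narrowest (0.47).

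Of 39 kinetochore and centromere genes, 2 rose (0.305% of all probe sets did). Cenpl, a subunit of the constitutive centromere network, read 4.59, 4.84 and 4.79 in ESC low and 5.73, 5.69 and 5.58 in ESC high, a difference of 0.92 ± 0.13 (SE; adjusted p = 0.00963, limma). Cenpf, a large protein of the outer kinetochore, read 7.44, 7.59 and 7.27 in ESC low and 7.94, 8.27 and 8.12 in ESC high, a difference of 0.68 ± 0.11 (SE; adjusted p = 0.0241, limma). Both had high arrays clear of the low arrays. Hjurp, the chaperone that loads CENP-A, was at 0.33 ± 0.08, the kinesin Cenpe at 0.34 ± 0.10 and the checkpoint protein Bub3 at 0.34 ± 0.10, none past the threshold. Of 19 condensin and mitotic chromosome genes, Top2a alone rose, the topoisomerase that disentangles sister chromatids. It read 9.16, 9.20 and 9.24 in ESC low and 9.61, 9.67 and 9.72 in ESC high, a difference of 0.47 ± 0.08 (SE; adjusted p = 0.0292, limma), and it was the brightest of the 15 genes in every array. The count of 15 rising mitosis genes was 3, 9 and 7 with array 2, 3 or 4 of ESC low left out and 5, 4 and 7 with array 2, 3 or 4 of ESC high left out. Mki67, a marker of dividing cells, was at 0.11 ± 0.10, and the regulators Foxm1 (0.26 ± 0.10) and Mybl2 (0.05 ± 0.10) of mitotic transcription did not pass either (adjusted p = 0.838, 0.504 and 0.94, limma).

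Promoters of genes expressed in G2 and mitosis are known for a pair of short elements, the cell cycle genes homology region (CHR), read by the MuvB complexes, and the CCAAT box, bound by NF-Y. RefSeq promoter windows (GRCm38.p6, 250 bases before to 50 after a gene's start) were found for 13 of the 15 rising mitosis genes and searched on both strands for TTTGAA (CHR) and CCAAT. Matches of the motifs may overlap and each motif was counted on its own. TTTGAA was in a window of 11 of the 13 (84.6%), CCAAT in 12 (92.3%), and both were in 11 (84.6%). Over 15793 measured protein-coding genes with a window the shares were 17.6% for TTTGAA, 42.2% for CCAAT and 7.05% for both. Over the 116 mitosis-list genes with a window they were 54.3%, 65.5% and 41.4%. In the 26 rising protein-coding genes outside the lists with a window, TTTGAA was found in 26.9% and both motifs in 11.5%. E2F-type sites, searched in the same way as TTTGGCG, in the second form as TTTCGCG and in the third form as TTTCCCG, were in 3 of the 13 (23.1%), in 25 of 47 replication and G1/S genes (53.2%) and in 8.25% of all. Printed here are 6 rising genes, by the 100 bases before their start, because both motifs lie there, with Prc1 at 1 of its starts. Capitals mark the CHR element, TTTGAA or on the other strand TTCAAA, and the CCAAT box, which on the other strand reads ATTGG. The capitals that open the Fam83d stretch are the end of a CCAAT box that starts before it. Each stretch is written 5′ to 3′ on the gene's strand.
Cdk1: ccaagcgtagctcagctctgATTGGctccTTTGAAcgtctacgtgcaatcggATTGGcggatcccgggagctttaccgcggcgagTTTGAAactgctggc
Fam83d: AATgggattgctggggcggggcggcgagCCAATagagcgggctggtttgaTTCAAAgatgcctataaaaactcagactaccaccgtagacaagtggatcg
Kif11: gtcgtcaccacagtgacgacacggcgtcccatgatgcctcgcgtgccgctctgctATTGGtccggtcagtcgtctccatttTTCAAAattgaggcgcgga
Prc1: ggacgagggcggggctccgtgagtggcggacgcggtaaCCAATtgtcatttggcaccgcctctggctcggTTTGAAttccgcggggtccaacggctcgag
Top2a: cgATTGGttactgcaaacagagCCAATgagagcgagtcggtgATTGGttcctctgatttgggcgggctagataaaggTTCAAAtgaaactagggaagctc
Ube2c: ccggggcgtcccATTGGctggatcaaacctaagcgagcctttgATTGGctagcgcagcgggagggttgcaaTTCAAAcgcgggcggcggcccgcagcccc
They lie at chr10:69352913-69353012 (minus strand) for Cdk1, chr2:158767999-158768098 (plus strand) for Fam83d, chr19:37376282-37376381 (plus strand) for Kif11, chr7:80294376-80294475 (plus strand) for Prc1, chr11:99024190-99024289 (minus strand) for Top2a and chr2:164769829-164769928 (plus strand) for Ube2c. The shortest distance within a window was taken from the first base of a CCAAT box to that of a following TTTGAA element. It was 22 bases in Fam83d, 26 in Kif11, 28 in Ube2c and 32 in Prc1, each with 1 TTTGAA element in a window. It was 9 in Cdk1 and 10 in Top2a, whose windows hold 2 such elements each. The Top2a pair lies before the printed bases. In both genes the element nearer the start follows its closest CCAAT box at a longer distance. Among genes not printed, the distance reached 73 in Cenpf. A match describes letters only, and binding was not measured. Nusap1, which rose as much as Cenpf, had neither motif in its window.

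Among genes of S-phase entry 1 fell, and most of the others had small negative differences. Of 57 measured genes of replication and the G1/S transition, 0 rose and 1 fell, where 0.0516% of all probe sets fell. Of the 57, 7 were above 0, against 48.9764% of all probe sets. The high arrays lay wholly below the low ones in 17 (29.8%, against 6.36% of all probe sets) and wholly above in 0. The list median was -0.09. The gene that fell was Ccne2, a cyclin that activates Cdk2 at S-phase entry. It read 6.44, 6.01 and 6.09 in ESC low and 5.66, 5.32 and 5.57 in ESC high, a difference of -0.67 ± 0.13 (SE; adjusted p = 0.0494, limma), and no high array reached a low one. The call was near the threshold, and of the 12 fits that each left out 1 array it held in only 1. The licensing factors Orc6 (-0.35 ± 0.10) and Cdc6 (-0.34 ± 0.11), the kinase Cdc7 (-0.38 ± 0.13), the histone mRNA binder Slbp (-0.28 ± 0.10) and the repressor E2f8 (-0.31 ± 0.11) did not pass (adjusted p from 0.223 to 0.434, limma). Of 20 genes of repair by homologous recombination, 0 passed, and in 7 (35%, against 6.36% of all probe sets) the high arrays lay wholly below the low ones.

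Rb1, the retinoblastoma protein that holds E2F factors in check, fell. It read 6.71, 6.85 and 6.76 in ESC low and 6.07, 6.25 and 6.16 in ESC high, a difference of -0.62 ± 0.09 (SE; adjusted p = 0.00963, limma) or 0.65-fold. The arrays of each fraction lay close together, and every high array was below every low one. Its relative Rbl2 was at -0.22 ± 0.10 and did not pass (adjusted p = 0.577, limma). Rb1 was the 1 gene of 24 in the list of G1 brakes, D cyclins and the RB family past the threshold. Over all probe sets 0.0516% fell. Of the 24, 17 were above 0, against 48.9764% of all probe sets, and the list median was 0.05. The cyclin-dependent kinase inhibitor Cdkn1a read 10.38, 9.81 and 9.88 in ESC low and 10.04, 9.45 and 9.61 in ESC high, a difference of -0.33 ± 0.16 (SE; adjusted p = 0.638, limma), with overlapping arrays.

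The p53 list holds the tumour suppressor's regulators and the stress-response genes it activates. Of 34 measured members, 1 fell (0.0516% of all probe sets did), 0 rose and 2 were above 0 (48.9764% of all probe sets were). In 13 (38.2%, against 6.36% of all probe sets) the high arrays lay wholly below the low ones, and the median was -0.23. Trp53inp1, a p53-induced gene of cell death and autophagy, read 7.48, 8.08 and 7.78 in ESC low and 6.86, 7.04 and 7.14 in ESC high, a difference of -0.77 ± 0.14 (SE; adjusted p = 0.0483, limma). Low array 2 was the lowest of its fraction, and still above all high arrays. Of the 12 fits that each left out 1 array, that call held in only 1. Ccng1, a cyclin-like p53 target, read 8.90, 9.07 and 8.88 in ESC low and 8.17, 8.57 and 8.51 in ESC high, a difference of -0.54 ± 0.13 (SE; adjusted p = 0.134, limma). Mdm2, the ubiquitin ligase that degrades p53, read 7.19, 7.37 and 7.18 in ESC low and 6.72, 6.92 and 6.87 in ESC high, a difference of -0.41 ± 0.10 (SE; adjusted p = 0.145, limma). Zmat3 (-0.47 ± 0.11) and Polk (-0.50 ± 0.11) likewise did not pass (adjusted p = 0.132 and 0.106, limma), though in all 4 of these genes the fractions did not overlap. Of 26 BCL2 family and caspase genes 0 passed, with a median of -0.02.

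The remaining falls were in genes outside these lists. Got1l1, an aminotransferase-like gene, had the largest under the naming rule. It read 6.85, 6.84 and 6.61 in ESC low and 5.39, 5.90 and 5.74 in ESC high, a difference of -1.09 ± 0.21 (SE; adjusted p = 0.0483, limma). Snhg20, a noncoding host of a small nucleolar RNA, fell by 0.79 ± 0.15, the homeobox gene Nkx2-9 by 0.78 ± 0.13 and Fam221a by 0.69 ± 0.10. Fbxl20, an F-box protein, fell by 0.53 ± 0.10 and the small GTPase Rab39b by 0.52 ± 0.09. Pramel11, one of many near-identical PRAME-like copies, read 2.18, 1.92 and 2.49 in ESC low and 1.45, 1.21 and 1.20 in ESC high, under the array medians in all arrays. The other 3 lower probe sets, Snord19, D930048N14Rik and Gm15545, fall outside the naming rule and are named here to complete the 13. With the replicate block Fbxl20, Snord19 and Gm15545 did not pass (adjusted p = 0.0752, 0.0798 and 0.0752, limma).

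**Figure D2:**
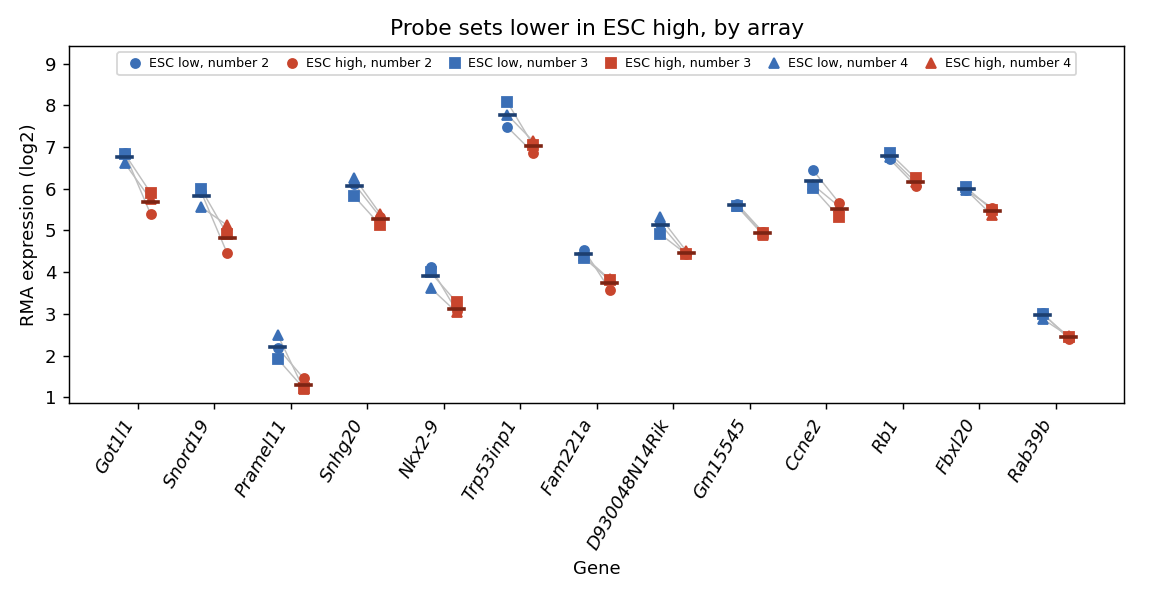
RMA expression (log2, vertical axis) of the 13 probe sets lower in ESC high, in the 6 ESC arrays. Colours, shapes and bars are blue for ESC low and red for ESC high, with shape for replicate number, grey lines between equal numbers and bars for group means (n = 3). Every red mark sits below every blue mark of its gene, and Pramel11 and Rab39b lie below the array median of 3.558.

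Of 529 measured microRNA genes, 18 rose in the high fraction and 0 fell, and 34 rose and 1 fell with the replicate block. Over all probe sets 0.305% rose and 0.0516% fell, or 0.579% and 0.123% with the block. The high arrays lay wholly above the low ones in 89 (16.8%, against 6.71% of all probe sets) and wholly below in 18 (3.4%, against 6.36%). The count of 18 was 5 and 9 with array 2 or 4 of ESC low left out and 5, 10 and 8 with array 2, 3 or 4 of ESC high left out. The probe sets carry the microRNA genes' names, and whether they read the mature form, the hairpin or the longer transcript is stated in no source used here. MicroRNA genes were left out of the naming rule, so those named below were chosen after their values were seen.

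Of the 18, 11 lie in 1 stretch of chromosome 12, in the imprinted domain between Dlk1 and Dio3, whose noncoding RNAs are made from the maternally inherited copy. Of 51 microRNA genes measured between Dlk1 and Dio3, 48 were above 0, against 48.9764% of all probe sets. The 36 from Mir379 to Mir369 in genome order were picked out after seeing the values, so their counts are a description with no test. Among these 36, 35 were above 0, 11 rose, 32 (88.9%, against 6.71% of all probe sets) had high arrays wholly above the low ones and 0 wholly below, and the median was 0.89. With the block 23 rose. Over all probe sets 0.305% rose, or 0.579% with the block. The count of 11 was 4 and 6 with array 2 or 4 of ESC low left out, 4, 6 and 3 with array 2, 3 or 4 of ESC high left out, and 6 with array 2 of iPSC high left out. The other 15 in the domain had a median of 0.27 with 0 past the threshold (1 with the block), and the 478 microRNA genes outside it a median of 0.03 with 7 higher (10 higher and 1 lower with the block). MicroRNA genes of this stretch are cut from shared transcripts and are not independent of each other.

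From RefSeq (GRCm38.p6), 1 or more mature sequences are given for each of the 11 genes of the stretch that rose and for those that share a seed with one that rose, and for the gene with the largest rise of all. They are written 5′ to 3′ with the seed, bases 2 to 8, in capitals.
miR-379-5p: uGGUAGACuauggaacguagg
miR-1193-5p: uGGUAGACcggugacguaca
miR-379-3p: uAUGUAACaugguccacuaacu
miR-411-3p: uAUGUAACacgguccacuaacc
miR-1197-5p: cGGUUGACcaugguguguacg
miR-758-5p: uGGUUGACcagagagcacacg
miR-376b-5p: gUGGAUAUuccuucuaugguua
miR-376c-5p: gUGGAUAUuccuucuauguuua
miR-154-3p: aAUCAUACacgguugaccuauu
miR-369-3p: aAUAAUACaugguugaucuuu
miR-329-3p: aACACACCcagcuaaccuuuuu
miR-543-3p: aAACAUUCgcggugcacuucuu
miR-382-5p: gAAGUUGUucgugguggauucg
miR-485-3p: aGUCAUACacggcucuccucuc
miR-539-5p: gGAGAAAUuauccuuggugugu
miR-138-5p: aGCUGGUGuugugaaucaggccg
The stretch runs on the plus strand from miR-379-5p at chr12:109709065-109709085 to miR-369-3p at chr12:109743466-109743486, and miR-138-5p of Mir138-2 lies at chr8:94324312-94324334 on the plus strand. All 18 rising genes had a mature sequence in the table, 34 in all with 33 different seeds, and the 1 seed shared between rising genes was GGUUGAC, of miR-1197-5p and miR-758-5p. GGUAGAC was shared by miR-379-5p and miR-1193-5p, AUGUAAC by miR-379-3p and miR-411-3p, and UGGAUAU by miR-376b-5p and miR-376c-5p. Over the 36 genes 67 mature sequences held 62 different seeds.

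Mir379, the first gene of the stretch, read 2.85, 3.07 and 3.19 in ESC low and 4.20, 4.04 and 4.56 in ESC high, a difference of 1.23 ± 0.15 (SE; adjusted p = 0.00591, limma). Mir329, the brightest of the 11 in every array, read 7.44, 7.81 and 7.75 in ESC low and 8.76, 8.52 and 8.85 in ESC high, a difference of 1.04 ± 0.13 (SE; adjusted p = 0.00763, limma). Mir369, at the far end, read 3.04, 3.67 and 3.70 in ESC low and 5.32, 5.04 and 4.71 in ESC high, a difference of 1.55 ± 0.20 (SE; adjusted p = 0.00963, limma). In these 3 genes the call held whichever of the 12 arrays was left out. Mir154 had the largest difference of the stretch, 1.69 ± 0.31 (SE; adjusted p = 0.0442, limma), and read 3.02, 4.08 and 3.07 in ESC low and 5.27, 5.10 and 4.86 in ESC high. Low array 3 of Mir154 stood above the other low arrays. Of the 12 fits that each left out 1 array, the Mir154 call held in only 3. Mir543 rose by 1.31 ± 0.20, Mir376b by 1.32 ± 0.23, Mir485 by 1.27 ± 0.23, Mir1197 by 1.11 ± 0.20, Mir382 by 1.08 ± 0.16, Mir758 by 0.90 ± 0.14 and Mir539 by 0.53 ± 0.10. In the same 12 fits the calls of Mir539, Mir1197, Mir376b and Mir485 held in 2, 3, 5 and 5. Those of Mir543, Mir758 and Mir382 held in 8, 8 and 9. Differences were not uniform along the stretch. Mir376c, which shares a seed with Mir376b, was at -0.00 and Mir299a at 0.03, both with all arrays under 1.8, while Mir453 was at 0.31 ± 0.20 with arrays from 7.19 to 8.02. Mir411 was at 0.80 ± 0.16 (adjusted p = 0.0603, or 0.0265 with the block, limma). Mir1193 was at 1.04 ± 0.24 (adjusted p = 0.124, or 0.0276 with the block, limma). Both passed with the block and not in the unpaired fit, as did other genes of the stretch.

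**Figure D3:**
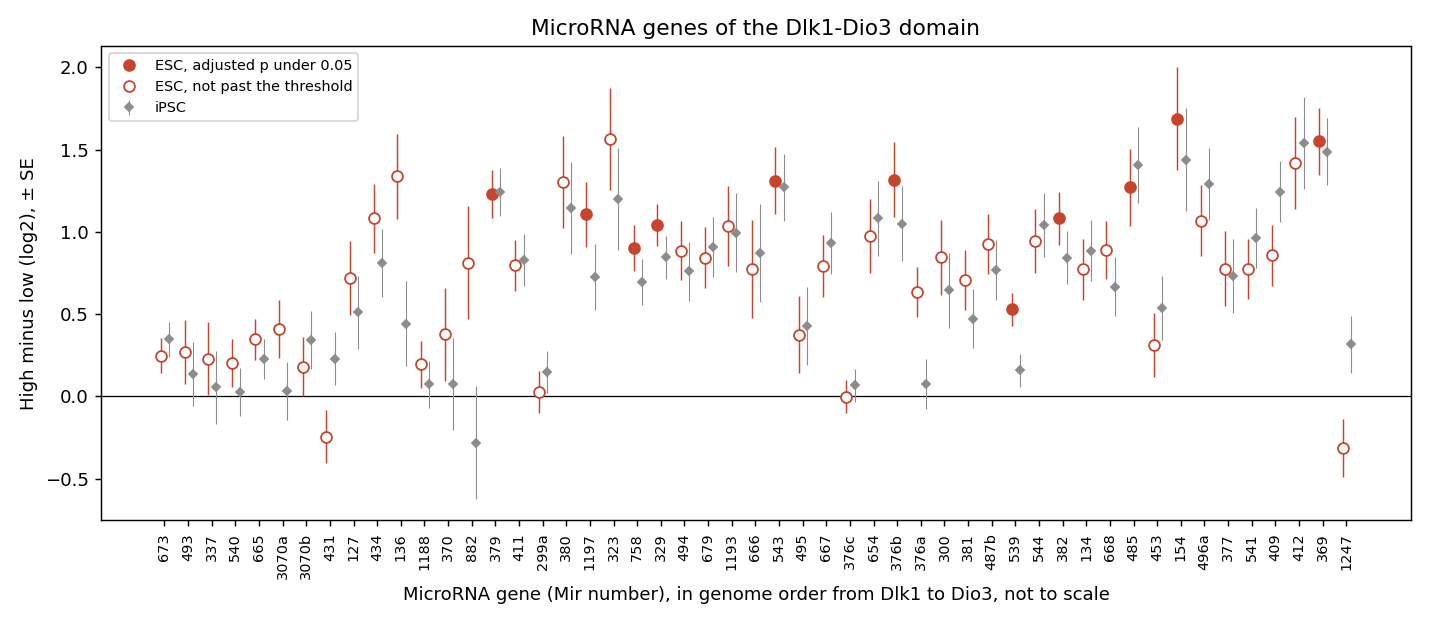
High minus low difference (log2, vertical axis, ± SE from limma) of 51 microRNA genes in genome order between Dlk1 and Dio3, for ESC (circles, filled where past the threshold) and iPSC (grey diamonds), 3 arrays per group. From Mir379 to Mir369, 35 of 36 ESC values lie above 0, around a median of 0.89, and the 15 genes outside that stretch lie around 0.27.

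The long transcripts of the domain did not pass. Mirg, the noncoding host of microRNA genes of this stretch, read 5.77, 6.14 and 6.38 in ESC low and 6.30, 6.43 and 6.58 in ESC high, a difference of 0.34 ± 0.18 (SE; adjusted p = 0.657, limma). Its arrays overlapped between the fractions, and its difference was smaller than the median of the 36 genes. Meg3 (0.14 ± 0.12) and Rian (0.09 ± 0.10), the other maternal noncoding RNAs, and the paternally expressed Dlk1 (-0.08 ± 0.18), Rtl1 (0.05 ± 0.29) and Dio3 (0.17 ± 0.27) had overlapping arrays too (adjusted p from 0.827 to 0.984, limma).

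Outside the domain the largest rise of all probe sets was that of Mir138-2 on chromosome 8. It read 3.13, 3.87 and 3.05 in ESC low and 5.91, 5.54 and 5.80 in ESC high, a difference of 2.39 ± 0.25 (SE; adjusted p = 0.00495, limma) or 5.26-fold. The high arrays stood more than 1.5 above the highest low array. Mir199a-1 rose by 1.10 ± 0.18, Mir674 by 1.07 ± 0.14, Mir425 by 1.05 ± 0.18 and Mir3061 by 0.68 ± 0.11. Mir182 (0.86 ± 0.16) and Mir96 (0.83 ± 0.15), members of 1 cluster on chromosome 6, rose as well, and Mir96 did not pass with the block (adjusted p = 0.0526, limma). Of the 12 fits that each left out 1 array, the Mir182 call held in 2 and the Mir96 call in 4. Of 106 small nucleolar RNA genes, 0 rose and 1 fell, and in 17 (16%, against 6.71% of all probe sets) the high arrays lay wholly above the low ones. With the replicate block 1 rose and 0 fell: Snora30, named after its values were seen, was at 0.68 ± 0.15 (adjusted p = 0.107 without and 0.0369 with the block, limma), and Snord19 no longer passed. The median differences of these 106 by replicate number were 0.23, -0.05 and 0.22, so number 3 ran the other way.

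Among protein-coding genes the largest rises were those of a pair of histone H3 genes. H3c14 read 3.37, 4.46 and 4.07 in ESC low and 6.46, 5.92 and 5.82 in ESC high, a difference of 2.10 ± 0.29 (SE; adjusted p = 0.00963, limma), and H3c15 read 2.63, 2.92 and 2.60 in ESC low and 5.01, 4.76 and 4.39 in ESC high, a difference of 2.01 ± 0.23 (SE; adjusted p = 0.00591, limma). They encode the same histone and are near-identical, so their signal may be shared. They were the 2 of 30 measured genes of the histone list past the threshold, and the list median was -0.05. The netrin Ntn3 read 3.48, 3.65 and 3.34 in ESC low and 5.25, 5.09 and 4.92 in ESC high, a difference of 1.59 ± 0.17 (SE; adjusted p = 0.00495, limma) or 3.02-fold. The epoxide hydrolase Ephx3 read 4.35, 4.54 and 3.97 in ESC low and 5.59, 5.66 and 5.82 in ESC high, a difference of 1.41 ± 0.16 (SE; adjusted p = 0.00591, limma). Every high array of Ntn3 and Ephx3 lay above every low array, and the low arrays of Ephx3 were the more widely spread.

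Several of the other large rises began near or below the array median. The bitter taste receptor Tas2r108 rose by 1.45 ± 0.22, Plac8l1 by 1.42 ± 0.23, the chemokine receptor Ccr4 by 1.34 ± 0.21, Adig, a gene of fat cell differentiation, by 1.30 ± 0.21 and the organic anion transporter relative Slc22a13b by 1.24 ± 0.22. The lysosomal protease Ctsk read 2.84, 2.93 and 2.78 in ESC low and 4.16, 4.09 and 3.95 in ESC high, and the T-box factor Tbr1, known from cortical neurons, read 2.60, 3.05 and 2.81 in ESC low and 4.31, 3.99 and 3.74 in ESC high. Both moved from below to above the array median of 3.558, by 1.21 ± 0.17 and 1.19 ± 0.17. Gpr75, a G protein-coupled receptor, rose by 1.19 ± 0.21. Slc22a13b did not pass with the replicate block (adjusted p = 0.0643, limma). RMA values carry no detection call, so whether a gene of such low signal was expressed in the low fraction is not shown.

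Among the brighter rises outside the mitosis lists was Cd68. This glycoprotein of lysosomes and endosomes, used as a macrophage marker, read 8.02, 8.21 and 7.84 in ESC low and 9.04, 8.81 and 9.10 in ESC high, a difference of 0.96 ± 0.13 (SE; adjusted p = 0.00963, limma) or 1.95-fold. In the list of 15 blood, macrophage and endothelial genes Cd68 and Ccr4 were the 2 that rose and 0 fell. Of the 15, 9 were below 0, with a median of -0.03. Cd80, a costimulatory ligand, read 3.33, 5.00 and 4.18 in ESC low and 2.77, 2.96 and 3.04 in ESC high, a difference of -1.25 ± 0.37 (SE; adjusted p = 0.272, limma) opposite in sign to those of Cd68 and Ccr4, and its fractions did not overlap. The defining markers Ptprc (-0.18 ± 0.10) and Adgre1 (0.03 ± 0.17) did not pass. The summed level of that list, as a mean over its 15 genes, was 3.54 to 3.66 in ESC low arrays and 3.59 to 3.62 in ESC high arrays. Of 29 lysosome and proton pump genes Cd68 alone rose. With the replicate block 1 of the 29 fell, Atp4b, a proton pump subunit of the stomach, at -1.13 ± 0.30 with no overlap between the fractions (adjusted p = 0.202 without and 0.0286 with the block, limma). Jpt1, a microtubule-associated protein, read 6.92, 7.04 and 7.15 in ESC low and 7.76, 7.75 and 7.84 in ESC high, a difference of 0.75 ± 0.09 (SE; adjusted p = 0.00591, limma). Cdca2, which targets protein phosphatase 1 to chromosomes and is in none of the lists, rose by 0.56 ± 0.10. The DNA helicase Pif1 (0.89 ± 0.12) and Fam72a (0.92 ± 0.12) also rose, and are named after their values were seen.

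No gene of the mitochondrial lists passed. Of 70 nuclear genes of oxidative phosphorylation, 0 passed, 55 were above 0 (78.6%, against 48.9764% of all probe sets) and the median was 0.09. The high arrays lay wholly above the low ones in 4 of them (5.71%), which is near the 6.71% of all probe sets. By replicate number the median difference was 0.18, 0.08 and -0.01, so the sign was not shared by the 3 pairs. Cycs, cytochrome c, read 3.43, 3.93 and 3.15 in ESC low and 4.52, 4.70 and 3.78 in ESC high, a difference of 0.83 ± 0.25 (SE; adjusted p = 0.303, limma), with overlapping arrays. Cox7b, a subunit of cytochrome c oxidase, read 3.10, 3.72 and 3.82 in ESC low and 4.24, 4.25 and 4.24 in ESC high, a difference of 0.70 ± 0.17 (SE; adjusted p = 0.148, limma). Of 74 mitochondrial ribosome genes 0 passed, 57 were above 0 (77%, against 48.9764% of all probe sets) and the median was 0.05. The lists of import and chaperones (35 genes), of DNA upkeep and biogenesis regulators (23), of carriers and uncoupling proteins (22), of fusion, fission and mitophagy (23), of the TCA cycle (26) and of fatty acid oxidation (17) held 0 genes past the threshold, with medians from -0.03 to 0.06. Tfam, which packages mitochondrial DNA, was at -0.18 ± 0.14, and the biogenesis coactivator Ppargc1a was at 0.05 ± 0.12 with all arrays under 1.4. The polymerase cofactor Polg2 was at 0.89 ± 0.23 and did not pass (adjusted p = 0.178, limma).

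Hypoxia-inducible genes had mostly negative differences in ESC. Of 30 measured HIF targets 0 passed, 5 were above 0 (48.9764% of all probe sets were), 7 (23.3%, against 6.36% of all probe sets) had high arrays wholly below the low ones, and the median was -0.15. The lysyl hydroxylase Plod2 read 7.35, 7.06 and 7.27 in ESC low and 6.68, 6.62 and 6.87 in ESC high, a difference of -0.50 ± 0.10 (SE; adjusted p = 0.0644, limma), and was the nearest to the threshold. Egln3, an oxygen-sensing prolyl hydroxylase, read 7.64, 6.79 and 7.80 in ESC low and 6.27, 6.45 and 6.91 in ESC high, a difference of -0.87 ± 0.27 (SE; adjusted p = 0.328, limma). The fractions did not overlap for Plod2, while low array 3 of Egln3 lay within the range of its high arrays. In iPSC the list had a median of 0.03 with 17 of 30 above 0, and the test of the ESC difference against the iPSC difference called 0 members. Of 19 glycolysis genes 0 passed, with a median of -0.07.

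**Figure D4:**
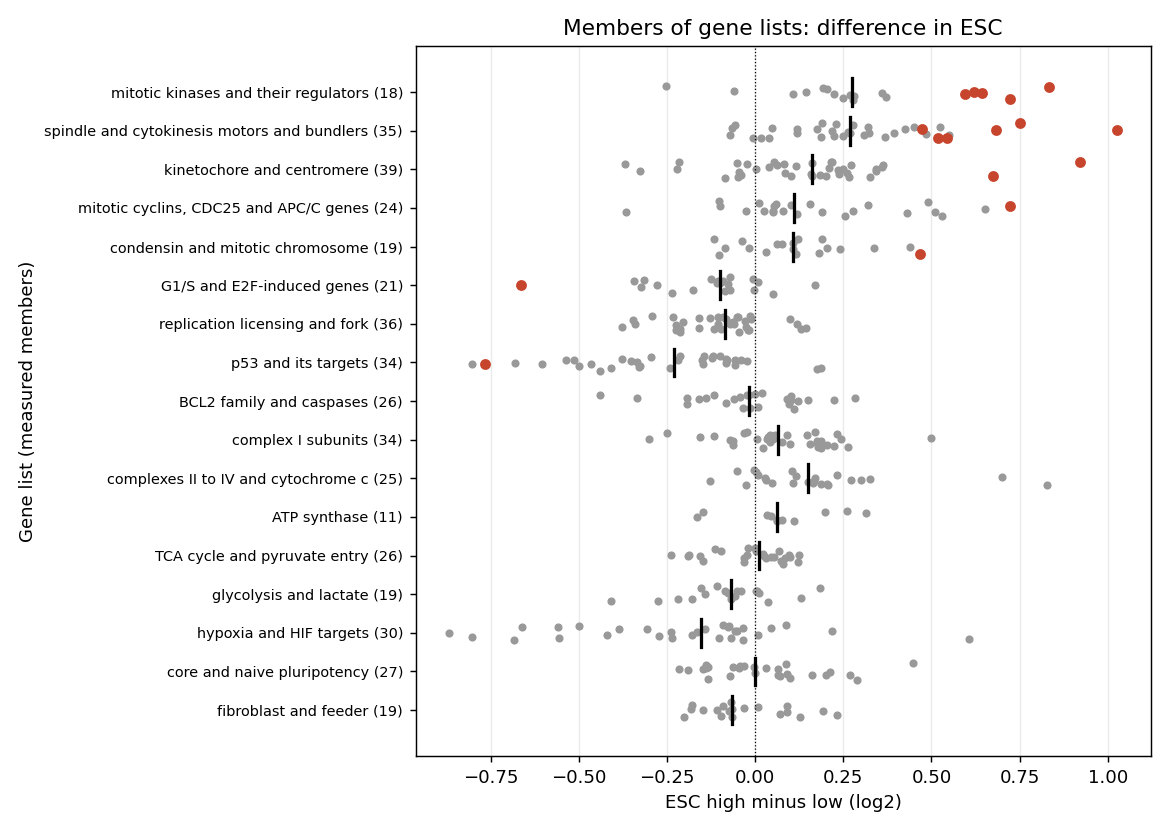
High minus low difference in ESC (log2, horizontal axis) of every measured member of 17 gene lists, 1 dot per gene, red where past the threshold, with the list median as a black bar. The 5 mitosis lists have medians from 0.11 to 0.27, the p53 list has a median of -0.23 and the hypoxia list one of -0.15.

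Among 27 measured genes of core and naive pluripotency, 0 rose and 0 fell, and the median was -0.00. Sox2 was at -0.14 ± 0.10, Klf4 at 0.07 ± 0.14, Esrrb at -0.00 ± 0.09 and Zfp42 at 0.10 ± 0.11. The lists of formative and primed genes (18), mesoderm (21), endoderm (18), trophoblast (13) and fibroblast or feeder genes (19) had 0 past the threshold, with medians from -0.07 to 0.02. In the remaining lists 0 genes passed for cholesterol, antioxidant enzymes, the ATF4 response, endoplasmic reticulum stress, heat shock, plasma membrane potential, LIF and ERK feedback, WNT targets, the X inactivation centre, cytosolic ribosomal proteins, MYC and germ cells, where Dazl passed with the block. In the neural list (19 genes) the 1 gene past the threshold was Nkx2-9, which fell. Tbr1, given above among the rises, is not in that list. The dye exporters Abcb1a (-0.18 ± 0.16), Abcb1b (-0.69 ± 0.28) and Abcg2 (-0.03 ± 0.15) did not pass (adjusted p = 0.829, 0.513 and 0.976, limma).

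Genes of the 2-cell-like state, a rare and transient state of ESC that resembles the 2-cell embryo, varied widely between arrays. Of 18 measured, 0 passed and the median was -0.23. Zscan4e, a multicopy zinc finger gene that marks the state, read 6.63, 3.40 and 6.65 in ESC low and 3.22, 0.68 and 2.58 in ESC high. Arrays numbered 3 were the lowest of their fraction, and each high array lay below the low array of its own number. The difference was -3.40 ± 0.83 (SE; adjusted p = 0.145, limma), and with the replicate block, which compares within numbers, it passed (adjusted p = 0.00448, limma). Pramel19 read 5.91, 3.19 and 5.66 in ESC low and 2.92, 1.76 and 3.08 in ESC high, a difference of -2.33 ± 0.58 (SE; adjusted p = 0.157, limma), and with the block it passed too (adjusted p = 0.019, limma). The copies of these families are near-identical, and the copy read is uncertain: Zscan4d was at -1.10 ± 0.52 and Zscan4c at -1.11 ± 0.71, neither past the threshold with the block (adjusted p = 0.36 and 0.268, limma).

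The iPSC fractions, which share no arrays with the ESC but enter the same estimate of spread, gave differences of the same sign for 89 of the 90 ESC calls, against 61.74% of all probe sets. In iPSC 138 probe sets passed (0.547%), 88 higher (0.349%) and 50 lower (0.198%), of which 53 were among the ESC calls, 58.89% of the ESC calls and 38.41% of the iPSC calls. That overlap was 19 and 27 with array 2 or 4 of ESC low left out, 19 and 25 with array 2 or 3 of ESC high left out, 13 and 10 with array 3 or 4 of iPSC low left out, and 19, 25 and 0 with array 2, 3 or 4 of iPSC high left out. The 138 iPSC calls were themselves 208, 35 and 13 with array 2, 3 or 4 of iPSC low left out and 60, 37 and 1 with array 2, 3 or 4 of iPSC high left out. The overlap was 97 with the replicate block. The difference was smaller in iPSC for 68 of the 90, which had been selected on their ESC values.

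Mitosis genes had a median of 0.15 in iPSC with 16 past the threshold, and Aurka stood at 0.87 ± 0.12 in iPSC against 0.83 ± 0.12 in ESC. The stretch from Mir379 to Mir369 had a median of 0.88 in iPSC with 12 genes past the threshold. Rb1 was at -0.83 ± 0.09 in iPSC and Trp53inp1 at -1.05 ± 0.14, both past the threshold there. Calls of ESC with small iPSC values were Idi2, an isopentenyl diphosphate isomerase (0.90 ± 0.12 in ESC, 0.02 ± 0.12 in iPSC), Mir3061 (0.06 in iPSC) and Mir182 (0.22 in iPSC). Pramel11 was the 1 call of opposite sign, at -0.91 ± 0.15 in ESC and 0.22 ± 0.15 in iPSC. None of these differences between the cell types passed a test.

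The test of the ESC difference against the iPSC difference called 0 probe sets with limma (0% of those tested), with 1100 at an unadjusted p under 0.05 (4.36%) and a lowest adjusted p of 0.895. Among the genes of lowest p in that test were Defa22, a defensin (-0.51 ± 0.16 in ESC, 0.88 ± 0.16 in iPSC), Cyp26b1, which degrades retinoic acid (-0.07 ± 0.11 and 0.76 ± 0.11), and Ano3, of the anoctamin family (-0.43 ± 0.14 and -1.55 ± 0.14). With the replicate block 1 probe set passed, Fthl17b, a ferritin heavy chain-like gene on chromosome X. It read 4.04, 4.66 and 3.45 in ESC low and 3.37, 4.04 and 2.88 in ESC high and was at -0.62 in ESC and 0.90 in iPSC, and its interaction had an adjusted p of 1 without the block and 0.027 with it (limma).

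**Figure D5:**
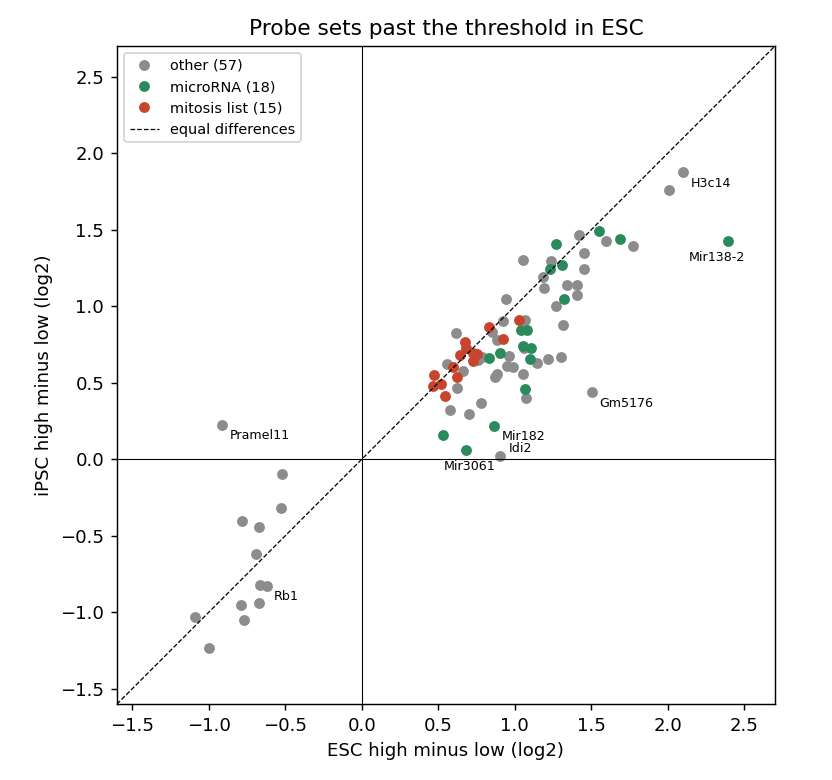
High minus low difference (log2) of the 90 probe sets past the threshold in ESC, with ESC on the horizontal and iPSC on the vertical axis, 1 dot per probe set, red for mitosis genes, green for microRNA genes and grey for others. The dashed line marks equal differences: 68 dots lie nearer to 0 in iPSC than in ESC, and Pramel11 is the 1 dot with opposite signs.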

How the data were processed

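RNA of 12 sorted populations was labelled with the WT Plus kit and hybridised to Affymetrix arrays. The deposited values are log2 expression, made by the authors with RMA, affy 1.36.1 and R 2.15.1, per the submitters' processing notes. RMA corrects background, quantile-normalizes and summarises probes, so a shift shared by most probe sets is removed. No source used here names the chip definition or genome build. Precision is limited by the number of arrays, 3 per group.

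Of 25206 probe sets, 23185 had 1 gene symbol and 2021 none, and all 23185 matched the reference gene table by gene number (GRCm38.p6). Tests used R 4.3.3 and limma 3.58.1: 1 mean per group over all 12 arrays, moderated variances, Benjamini-Hochberg over all probe sets, adjusted p under 0.05. Errors of differences are SE from that fit. The contrasts were ESC high minus low, iPSC high minus low, and their difference. The fit was tested on simulated data with known changes. Figures used Python 3.11.15 and matplotlib 3.10.9.

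The members, the 49 gene lists (1148 genes measured) and the naming rule were chosen with earlier results of these data known. The rule takes the 12 largest rises and falls with 1 symbol and no overlap between fractions, leaving out predicted, microRNA and small nucleolar RNA genes (10 falls qualified). It adds the 12 brightest calls, each described list's calls with up to 4 further members of lowest p, up to 8 genes in each direction of lowest interaction p, and 20 fixed genes, of which 18 were measured and 2 were not analysed here.

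Whether replicate numbers pair the fractions was checked before calls were compared. Deviations of equal-numbered low and high ESC arrays from their group means correlated at 0.341, 0.233 and 0.283, and those of unequal numbers at -0.226 to -0.053. The deviations of a group sum to 0, so positive values for equal numbers push those of unequal numbers below 0. The negative values are therefore no separate evidence of pairing. As every pair was above 0.1, the numbers were treated as likely pairs, an inference from the data. The main fit did not use the pairs. Counts, SE and adjusted p given without mention of the replicate block are therefore unpaired. Alternatives were that block, the ESC arrays alone, other scalings, filters and variance models, array weights and leaving out each array.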

Additional observations from a re-analysis of the deposited data

How the results depend on the processing

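Across 22 alternative settings no call of the 90 changed sign, 8 were kept under every setting that tested them and 82 were lost under at least 1. With the replicate block the pairing gave 146 higher and 31 lower probe sets, 34 rising microRNA genes and 1 probe set for the ESC effect minus the iPSC effect. The 6 ESC arrays alone, with fewer arrays to estimate the spread, gave 36 higher, 3 lower, 3 rising mitosis genes and 9 rising microRNA genes, and 5 rising mitosis genes with the block added. A trend in the variance with level gave 23 rising mitosis genes. Centring arrays on their medians moved the median difference of replication and G1/S genes from -0.0922 to -0.1136 and gave 71 higher and 14 lower.

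Leaving out 1 array at a time, the higher count ranged from 17 to 98, the lower count from 1 to 18, rising mitosis genes from 3 to 15, rising microRNA genes from 5 to 19 and the interaction count stayed at 0. The median difference of mitosis genes ranged from 0.1721 to 0.2495, that of replication and G1/S genes from -0.1145 to -0.0778, that of the p53 list from -0.2959 to -0.1885 and that of Mir379 to Mir369 from 0.7771 to 1.03. For these 4 medians no setting changed the sign. Of 258 genes followed that did not pass, 36 passed under at least 1 setting. Where an array was left out of a group, the fit pooled the spread of the others.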
